A study of Mus musculus with 6 samples.

Results

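The solute carrier (Slc) genes were compared between the lower and the upper fraction of the side population of mouse hematopoietic stem cells. Members were the probe sets of the array that carried a single gene symbol beginning with Slc and a number, with Slc14a1 left out, and a probe set was kept where its log2 value lay above 4 on at least 3 of the 6 arrays. The array held 654 such probe sets for 346 Slc genes, and 238 probe sets for 156 genes were kept, 211 of them above 4 on all 6 arrays. The other 190 genes had no probe set above that level on 3 arrays, some of them reaching it on 1 or 2, and their differences were not tested. Among all 45037 probe sets of the array other than controls, 19613 passed the same rule.

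Lower-SP cells (3 arrays) and Upper-SP cells (3 arrays) were sorted from the bone marrow of male C57Bl/6 (CD45.1) mice at 10 weeks of age. The side population is the set of marrow cells that keep a DNA dye low by pumping it out, and it is divided by how far the cells lie along that dye signal. Cells of both fractions were also sorted as lineage-negative, Sca-1+ and c-Kit+, and the 3 replicates of a fraction came from pooled mice sorted on separate days, so each array stands for a pool rather than 1 animal. RNA was amplified by repeated in vitro transcription before hybridisation. In such bulk samples a change in the share of cells that use a gene and a change in the amount of its RNA per cell cannot be told apart.

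Solute carriers are membrane proteins that move amino acids, sugars, ions, metals, vitamins and nucleotides across the plasma membrane and the membranes of organelles. They are numbered in families by sequence, and the Slc25 family sits almost entirely in the inner mitochondrial membrane. Hematopoietic stem cells are known for low mitochondrial activity and reliance on glycolysis, and amino acid and glucose uptake rise in blood progenitors when they enter division.

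Correlations between arrays ran from 0.952 to 0.991 inside each fraction and from 0.911 to 0.938 across the fractions, and 19317 to 19666 probe sets lay above log2 4 on each array. Of 10 listed markers of stem and progenitor cells, 9 were on the array under their own symbol and all 9 were measured. Their mean was 9.41 to 9.52 on the Lower-SP arrays and 9.80 to 10.03 on the Upper-SP arrays. Kit, Cd34 and Flt3 were lower in Lower-SP cells, by -0.92, -1.41 and -2.22 (limma adjusted p = 0.0141, 0.003 and 0.00252). The other measured markers of this list did not pass, with differences on both sides of 0, from -0.05 (Procr) to 0.34 (Mecom). The list mean includes Kit, Cd34 and Flt3. Neutrophil markers set Lower-SP replicates 1 and 2 apart. Their mean over 11 genes, 7 of them above the level rule, was 7.91, 7.34 and 4.69 on Lower-SP replicates 1, 2 and 3, against 4.34, 4.55 and 3.61 on the Upper-SP arrays. S100a8, S100a9, Lcn2 and Chil3 were called higher in Lower-SP cells, by 3.835 to 4.65 (limma adjusted p from 0.0159 to 0.0305). Lcn2 and Chil3 lay above log2 4 on the Lower-SP arrays alone, so a difference was built into their passing the level rule. Among the granule genes, Ngp measured 11.35, 10.79 and 7.01 in Lower-SP cells, against 7.13, 7.60 and 4.42 in Upper-SP cells. Ltf measured 8.42, 7.69 and 3.26, against 4.70, 5.19 and 2.93. Ngp, Camp and Ltf did not pass (limma adjusted p = 0.0758, 0.109 and 0.231). Mpo lay above log2 4 on Lower-SP replicate 1 only (4.25), and Elane was under log2 4 on every array. Among B and plasma cell markers, the antibody gene Igha alone passed, and it differed the other way. Igha measured 9.40, 8.99 and 4.70 in Lower-SP cells, against 12.43, 12.60 and 11.31 in Upper-SP cells (limma adjusted p = 0.0239). Jchain and Cd79b differed by -1.82 and -0.37 and Ms4a1 by 0.42, none passing (limma adjusted p = 0.109, 0.48 and 0.178). The mean of 7 B and plasma cell markers, 4 of them above the level rule, was 3.65 to 4.92 in Lower-SP cells, against 5.17 to 5.46 in Upper-SP cells. Cd79a, Mzb1 and Derl3 were under 4 on every array. Single markers of other lists also passed by limma. Nkg7 (T and NK cells, the other 4 under 4 on every array) differed by -1.14 and Postn (stromal and endothelial cells, the other 3 under 4) by -2.16. Csf1r (macrophages) differed by 1.06 and Gp1bb (megakaryocytes) by 1.66. Gp1bb lay above log2 4 on the Lower-SP arrays alone, so a difference was built into its passing the level rule. The other measured megakaryocyte markers did not pass, with Pf4 at -0.25, Gp9 at -0.51, Itga2b at 0.045 and Vwf at 1.40. Ppbp was under 4 on every array. The 6 megakaryocyte markers averaged 6.66 to 7.02 in Lower-SP cells, against 6.22 to 6.745 in Upper-SP cells. The 4 macrophage markers averaged 4.21 to 5.33 in Lower-SP cells, against 4.56 to 5.50 in Upper-SP cells. C1qa differed by -1.03 and did not pass (limma adjusted p = 0.432), and Adgre1 and Cd68 did not reach the level rule. All 4 erythroid markers on the array were under 4 on every array. The part of these other cells' RNA in the Slc calls was not tested. The part of neutrophil RNA was not tested beyond refitting without Lower-SP replicates 1 and 2, a setting chosen after the data were seen, whose values stand beside the results below.

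Across the 156 Slc genes, 7 were higher and 24 lower in Lower-SP cells at an adjusted p under 0.05 (limma, Benjamini-Hochberg over all tested probe sets). These are 4.49% and 15.4% of the Slc genes, beside 7.05% higher and 20.7% lower among all 9460 genes tested. Both shares lay below those of all genes, and the difference in shares was not tested. The median log2 difference, Lower-SP minus Upper-SP, was -0.24 for the Slc genes and -0.24 for all genes. Each gene was read through its probe set with the highest mean, and counted over probe sets 13 were higher and 39 lower of 238, beside 10.7% higher and 17.5% lower among all probe sets. In all 31 called genes the 3 Lower-SP values lay on one side of the 3 Upper-SP values. Such separation without regard to the test was seen in 21 Slc genes higher and 46 lower in Lower-SP cells, beside 13.4% and 32.3% of all genes.

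These counts rested on single arrays: leaving out 1 array at a time gave 4 to 8 Slc genes higher and 5 to 33 lower. The fewest were 4 and 5 without Upper-SP replicate 1, beside 270 and 425 of all 9460 genes. Without Upper-SP replicate 2 they were 5 and 10, beside 387 and 798 of all genes. Array weights gave 21 higher and 62 lower, beside 1301 and 3967 of all 9460 genes. The balance of the calls moved with the scaling of the arrays. With cyclic loess normalisation 13 Slc genes were higher and 18 lower, beside 10.2% and 13.8% of all genes, and the median of all genes moved to -0.09. Median centring gave 11 higher and 20 lower, beside 793 and 1645 of all 9460 genes. Quantile normalisation gave 10 higher and 20 lower, beside 868 and 1555. In the refit that dropped both Lower-SP replicates 1 and 2, the single remaining Lower-SP array being assumed to vary like the others, 5 Slc genes were higher and 12 lower, beside 4.32% and 8.33% of all genes.

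**Figure D1:**
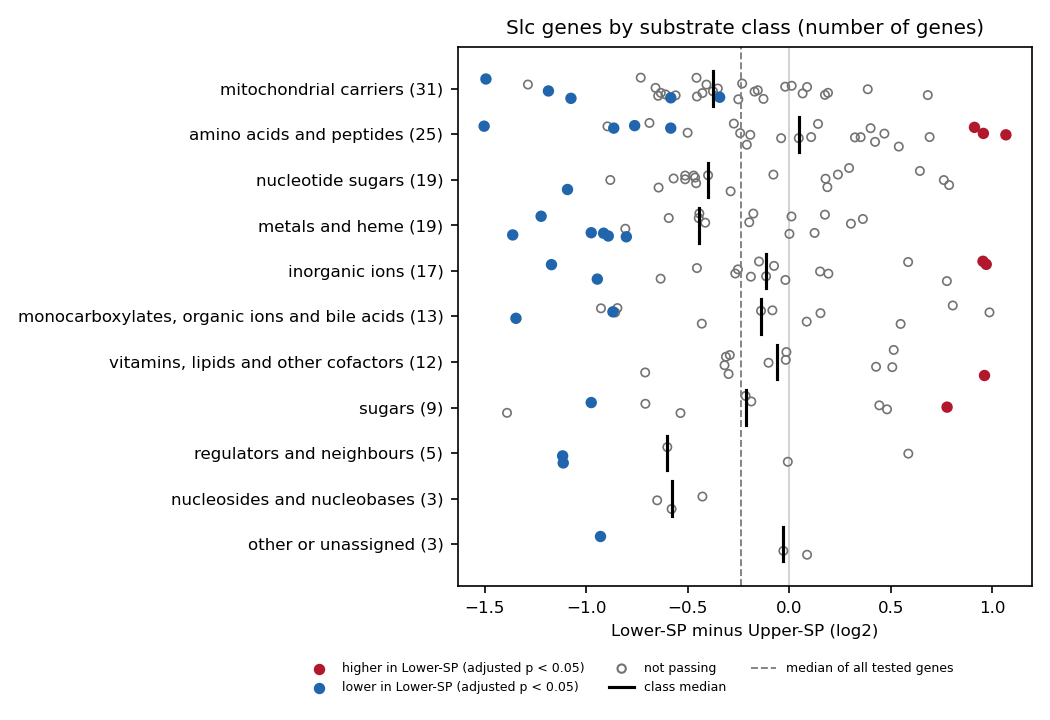
Log2 difference, Lower-SP minus Upper-SP (horizontal axis), of the 156 measured Slc genes in their substrate classes (vertical axis, number of genes in brackets); each point is 1 gene read through its probe set with the highest mean, and coloured points passed limma at an adjusted p under 0.05. Amino acid carriers lie on both sides of 0 (3 called higher, 4 lower). No mitochondrial or metal carrier was called higher, beside 7.05% of all genes, and other classes, such as nucleotide sugar and monocarboxylate carriers, also had none.

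Amino acid and peptide carriers made up 25 of the genes, of which 3 rose, 4 fell and 18 did not pass. These are 12% and 16% of the class, beside 7.05% higher and 20.7% lower among all genes. Those that rose were Slc7a1, the main importer of cationic amino acids such as arginine and lysine, Slc38a2, a sodium-coupled importer of small neutral amino acids, and Slc66a1, which exports cationic amino acids from the lysosome. Those that fell were Slc38a6, a relative of Slc38a2, Slc15a2, a proton-coupled peptide importer, Slc1a5, an exchanger of glutamine and other neutral amino acids, and Slc3a2, the heavy chain that brings several exchangers to the cell surface. The median difference of the class was 0.05.

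Slc7a1 measured 9.50, 9.83 and 9.76 (log2) on the 3 Lower-SP arrays, against 8.72, 8.44 and 8.73 on the Upper-SP arrays. All Lower-SP values lay above all Upper-SP values, a difference of 1.07 ± 0.17 (log2, SE), or 2.1-fold (limma adjusted p = 0.00562). Its second probe set was called higher as well, by 0.99 (limma adjusted p = 0.028). Together with Slc66a1 and Slc7a6os, Slc7a1 was 1 of 3 genes that passed in each of the 21 other settings in which it was measured, with a highest adjusted p of 0.0395 by limma.

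Slc38a2 measured 13.44, 13.39 and 13.72 in Lower-SP cells, against 12.46, 12.50 and 12.72 in Upper-SP cells. The groups did not overlap and differed by 0.96 ± 0.12, or 1.94-fold (limma adjusted p = 0.00311). A further probe set of the same gene went the other way, with 11.19, 11.34 and 11.27 in Lower-SP cells and 11.77, 11.66 and 11.69 in Upper-SP cells, a difference of -0.44 (limma adjusted p = 0.0197). The remaining probe set lay between them at -0.11 and did not pass (limma adjusted p = 0.724). Slc38a2 was the 1 gene of 53 with several kept probe sets whose probe sets were called in opposite directions, so the direction given for it is that of its brightest probe set and not of every probe set. With its probe sets averaged the difference was 0.14 and did not pass (limma adjusted p = 0.314).

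Slc66a1 measured 8.73, 8.63 and 9.04 in Lower-SP cells, against 8.06, 7.86 and 7.73 in Upper-SP cells. The difference was 0.91 ± 0.19 (limma adjusted p = 0.0131). Without Lower-SP replicates 1 and 2, Slc7a1, Slc38a2 and Slc66a1 still passed, while none of the 4 amino acid carriers that fell did.

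Slc38a6 had the largest fall among the amino acid carriers and an uneven one, with 5.47, 5.15 and 6.56 in Lower-SP cells, against 7.26, 7.30 and 7.14 in Upper-SP cells. Lower-SP replicate 3 lay nearest to the Upper-SP values. The difference was -1.50 ± 0.37, or 2.84-fold lower (limma adjusted p = 0.0207), and without Lower-SP replicates 1 and 2 it was -0.67 (limma adjusted p = 0.126). Without any 1 of Lower-SP replicates 1 and 2 and Upper-SP replicates 1 and 2, its adjusted p was 0.0636, 0.0638, 0.0862 and 0.0706 by limma. Slc15a2, which is named because its call was seen and not by the rule for named genes, measured 10.64, 10.56 and 10.52 in Lower-SP cells, against 11.49, 11.63 and 11.20 in Upper-SP cells. Its difference of -0.87 ± 0.14 (limma adjusted p = 0.00603) was -0.92 without Lower-SP replicates 1 and 2 (limma adjusted p = 0.0527).

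Slc1a5 averaged 7.49 ± 0.07 in Lower-SP cells and 8.25 ± 0.09 in Upper-SP cells (SD, n = 3 each), a difference of -0.76 ± 0.17 (limma adjusted p = 0.017). Slc3a2 measured 11.97, 12.24 and 12.31 in Lower-SP cells, against 12.90, 12.95 and 12.41 in Upper-SP cells. Upper-SP replicate 3 came close to the Lower-SP values, and the difference of -0.58 ± 0.17 (limma adjusted p = 0.0355) lost the call when any of replicates 1 and 2 of either fraction was dropped. Its adjusted p then ran from 0.0807 to 0.139 by limma, and it was 0.0878 with cyclic loess, 0.0668 with quantile normalisation and 0.0549 with median centring. Slc1a5 lost the call without Lower-SP replicate 2 (limma adjusted p = 0.0565), Upper-SP replicate 1 (0.0845) or Upper-SP replicate 2 (0.0693).

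Slc7a5, the light chain that pairs with Slc3a2 to exchange large neutral amino acids, measured 6.96, 6.83 and 6.82 in Lower-SP cells, against 6.35, 6.32 and 6.33 in Upper-SP cells. The groups did not overlap, but the difference of 0.54 ± 0.20 did not pass (limma adjusted p = 0.0766). Slc7a11, the light chain of the cystine and glutamate exchanger, differed by -0.21 and did not pass, with groups that overlapped. Slc1a4, an exchanger of alanine, serine and cysteine, and Slc6a6, the taurine importer, differed by 0.42 and 0.11 and did not pass. The second kept probe set of Slc6a6 differed the other way, by -1.38, and did not pass either (limma adjusted p = 0.0821).

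The promoters of 4 genes are shown because these genes are called and are textbook cases of nutrient or metal carriers. Each line gives the 250 bases before the transcription start in RefSeq's mouse build GRCm38.p6, 5′ to 3′ on the gene's strand. Capitals mark matches, on either strand, to the GC box GGGCGG, the CCAAT box CCAAT, the TATA box TATAAA, the metal-response cores TGCACNC and TGCGCNC, and the amino acid response core TGATGNAA.
Slc38a2: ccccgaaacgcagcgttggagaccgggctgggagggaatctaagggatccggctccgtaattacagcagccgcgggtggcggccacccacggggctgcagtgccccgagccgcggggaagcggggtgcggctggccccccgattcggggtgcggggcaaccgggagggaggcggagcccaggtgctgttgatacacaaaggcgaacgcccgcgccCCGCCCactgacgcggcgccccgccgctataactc
Slc7a1: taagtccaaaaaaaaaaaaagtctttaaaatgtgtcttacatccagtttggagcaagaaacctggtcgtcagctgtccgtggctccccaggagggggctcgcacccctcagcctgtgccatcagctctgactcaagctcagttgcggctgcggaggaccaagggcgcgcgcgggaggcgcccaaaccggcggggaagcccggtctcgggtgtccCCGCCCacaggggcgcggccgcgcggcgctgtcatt
Slc2a1: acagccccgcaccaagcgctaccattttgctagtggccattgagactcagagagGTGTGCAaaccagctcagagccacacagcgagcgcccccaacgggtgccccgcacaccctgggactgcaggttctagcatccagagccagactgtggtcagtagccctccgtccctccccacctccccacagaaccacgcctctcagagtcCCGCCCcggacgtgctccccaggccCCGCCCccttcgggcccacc
Slc30a1: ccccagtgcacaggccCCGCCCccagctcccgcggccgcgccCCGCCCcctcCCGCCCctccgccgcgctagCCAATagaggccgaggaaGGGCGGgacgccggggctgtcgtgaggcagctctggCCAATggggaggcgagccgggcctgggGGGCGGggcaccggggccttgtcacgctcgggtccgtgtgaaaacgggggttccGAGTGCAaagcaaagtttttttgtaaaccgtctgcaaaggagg

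The Slc38a2 promoter (chr15:96699729-96699978, minus strand) held 1 GC box, and so did that of Slc7a1 (chr5:148399905-148400154, minus strand), for which RefSeq lists 2 starts. No match to TGATGNAA was in either window, and sequence past the transcription start was not read, so its presence there is not known. The Slc2a1 promoter (chr4:119108495-119108744, plus strand) held 2 GC boxes and 1 match to TGCACNC. The Slc30a1 promoter (chr1:191906531-191906780, plus strand) held 5 GC boxes, 2 CCAAT boxes and 1 match to TGCACNC. In the table of 32851 mouse promoters, 32.7% held GGGCGG, 33.8% CCAAT, 12.4% TATAAA, 10.4% TGCACNC, 12.5% TGCGCNC and 3.45% TGATGNAA. Of the 148 promoters listed for 115 of the measured Slc genes, 68.2% held GGGCGG, 33.1% CCAAT, 3.38% TATAAA, 13.5% TGCACNC, 18.2% TGCGCNC and 1.35% TGATGNAA. A match describes letters only, and these windows differ in base composition.

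Of 9 sugar carriers, 1 rose and 1 fell, 11.1% each, beside 7.05% higher and 20.7% lower among all genes. Slc2a1 (GLUT1), the glucose importer of most blood cells, measured 10.04, 10.12 and 10.32 in Lower-SP cells, against 9.30, 9.31 and 9.53 in Upper-SP cells. The groups were well apart, with a difference of 0.78 ± 0.15, or 1.71-fold (limma adjusted p = 0.00969). Its other probe sets differed by 0.48 (limma adjusted p = 0.0581) and by 0.04 (limma adjusted p = 0.97), and Slc2a1 lost the call without Upper-SP replicate 1 (0.74, limma adjusted p = 0.0558), with its probe sets averaged (0.43, 0.187) and through the one of highest variance (0.04, 0.97).

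Slc2a3 (GLUT3), a high-affinity glucose importer, measured 11.29, 11.18 and 11.30 in Lower-SP cells, against 11.63, 11.45 and 11.33 in Upper-SP cells. The fractions were separated by a narrow gap, and the difference of -0.22 ± 0.12 did not pass (limma adjusted p = 0.215), so the 95% interval of the change ran from -0.49 to 0.06. Slc45a4, a member of the proton-coupled sugar carrier family, fell, with 7.20, 7.28 and 6.81 in Lower-SP cells, against 8.19, 8.13 and 7.91 in Upper-SP cells. Its difference was -0.98 ± 0.21 (limma adjusted p = 0.0145), and its adjusted p was 0.0782 and 0.0581 by limma when Upper-SP replicate 1 or 2 was dropped. Slc2a1 and Slc45a4 were both still called without Lower-SP replicates 1 and 2.

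Among 17 carriers of inorganic ions, 2 rose and 2 fell, 11.8% each, beside 7.05% higher and 20.7% lower among all genes. Slc12a2 (NKCC1), which brings sodium, potassium and chloride into the cell together, rose, while Slc12a7 (KCC4), which lets potassium and chloride out together, fell. Slc12a2 measured 8.55, 8.41 and 8.26 in Lower-SP cells, against 7.50, 6.95 and 7.91 in Upper-SP cells. Slc12a7 measured 6.40, 6.97 and 7.11 in Lower-SP cells, against 8.07, 8.11 and 7.81 in Upper-SP cells. Neither pair of groups overlapped, with a difference of 0.96 ± 0.27 for Slc12a2 (limma adjusted p = 0.0327) and of -1.17 ± 0.25 for Slc12a7 (limma adjusted p = 0.0132).

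A second probe set of Slc12a2 was called higher by 1.497 (limma adjusted p = 0.00882) and the remaining one differed by 0.76 (limma adjusted p = 0.0678). Slc9a8, a sodium and proton exchanger of the Golgi apparatus, measured 9.15, 9.42 and 9.62 in Lower-SP cells, against 8.47, 8.07 and 8.74 in Upper-SP cells. Its difference was 0.97 ± 0.22 (limma adjusted p = 0.0175), whereas its other kept probe set differed by -0.42 and did not pass, and their average differed by 0.28 (limma adjusted p = 0.264). Slc26a2, a sulfate importer, averaged 7.97 ± 0.26 in Lower-SP cells and 8.91 ± 0.16 in Upper-SP cells (SD, n = 3 each), a difference of -0.95 ± 0.20 (limma adjusted p = 0.0132).

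All 4 ion carriers kept their direction but lost the call in 3 of the refits. These left out Lower-SP replicates 1 and 2 (limma adjusted p from 0.0532 to 0.23), Upper-SP replicate 1 (0.0703 to 0.106), or Upper-SP replicate 2 (0.0531 to 0.0915). Slc12a2 also lost it without Lower-SP replicate 1 (0.0945), and Slc12a2 and Slc9a8 without Lower-SP replicate 2 (0.0579 to 0.0891). Slc20a1, a phosphate importer that also serves as a retrovirus receptor, differed by -0.11 through its brightest probe set (limma adjusted p = 0.525) and by 1.22 through another (limma adjusted p = 0.0195). Slc4a1, the anion exchanger of red cells, measured 4.17, 5.99 and 4.22 in Lower-SP cells, against 4.68, 4.30 and 4.94 in Upper-SP cells, with Lower-SP replicate 2 above the rest.

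**Figure D2:**
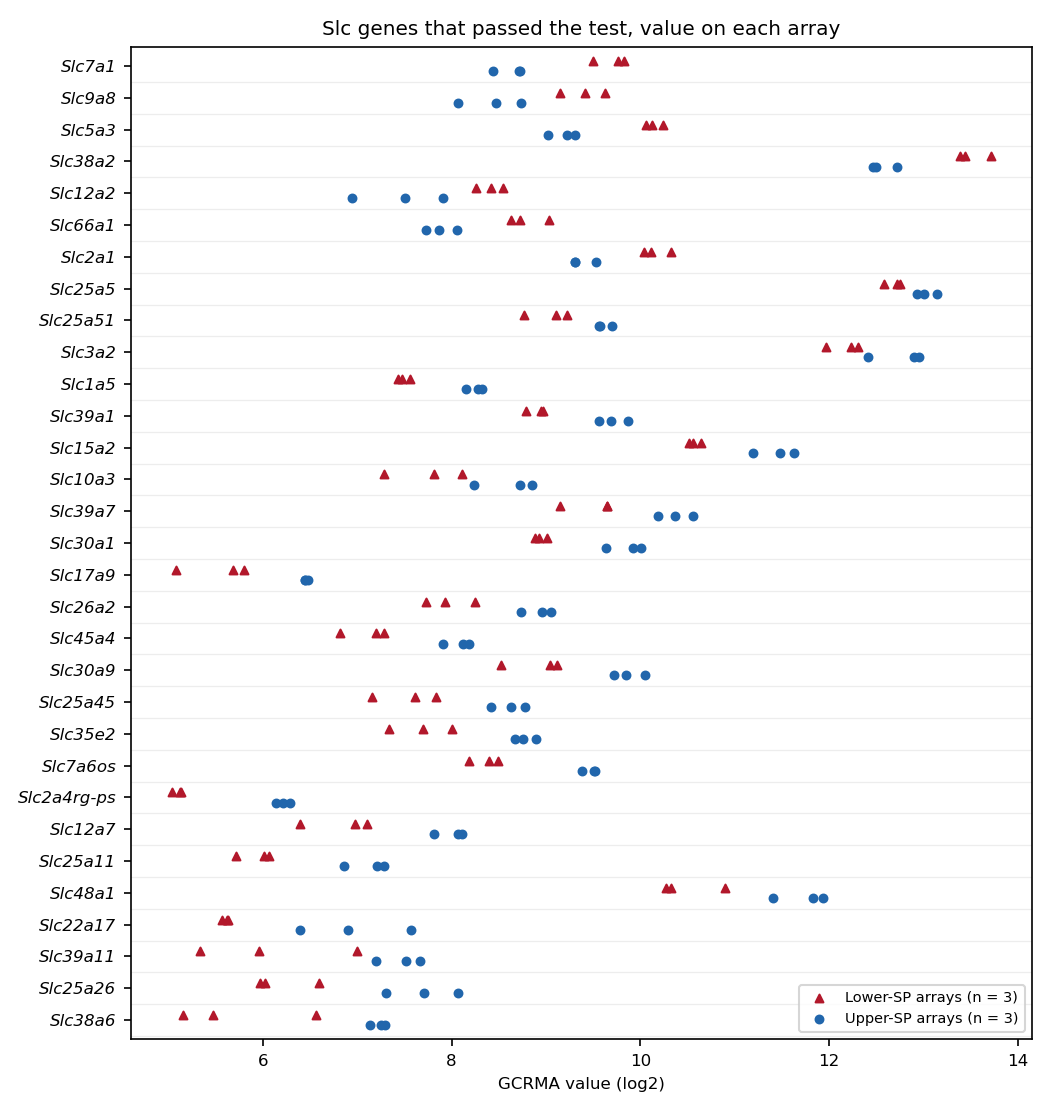
GCRMA value (log2, horizontal axis) on each array for the 31 Slc genes that passed limma at an adjusted p under 0.05 (rows, from the largest difference above 0 to the largest below); triangles are the 3 Lower-SP arrays and circles the 3 Upper-SP arrays. In the upper 7 rows all triangles lie right of all circles, and in the other 24 rows all lie left of them, with the narrowest gaps in Slc3a2, Slc10a3, Slc25a5 and Slc39a11.

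Of 19 carriers of metals and heme, 6 fell and none rose, beside 20.7% lower and 7.05% higher among all genes. The 6 are 31.6% of the class, whose median difference was -0.44 beside -0.24 for all genes, and 13 of its 19 differences were below 0, as were 6089 of 9460 over all genes. Slc30a1 (ZnT1), which exports zinc across the plasma membrane, Slc30a9, a zinc carrier of mitochondria, and 3 Slc39 (ZIP) genes, whose family moves zinc toward the cytosol, were all lower. The sixth, Slc48a1 (HRG1), carries heme out of the endosome and lysosome.

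Slc30a1 measured 9.02, 8.93 and 8.88 in Lower-SP cells, against 10.01, 9.92 and 9.64 in Upper-SP cells. Its replicates were tight, and the difference was -0.92 ± 0.16, or 1.89-fold lower (limma adjusted p = 0.00704). Its other kept probe set differed by -0.41 and did not pass (limma adjusted p = 0.24). Slc30a9 measured 9.04, 8.53 and 9.12 in Lower-SP cells, against 9.72, 10.05 and 9.85 in Upper-SP cells, a difference of -0.98 ± 0.20 (limma adjusted p = 0.0121).

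Slc48a1 measured 10.28, 10.32 and 10.90 in Lower-SP cells, against 11.83, 11.93 and 11.41 in Upper-SP cells. Replicate 3 of each fraction lay nearest to the other fraction, and the difference was -1.22 ± 0.21, or 2.33-fold lower (limma adjusted p = 0.00704). The second kept probe set of Slc48a1 differed by -0.75 and did not pass (limma adjusted p = 0.0701). Slc39a11 was spread more widely, with 5.33, 5.96 and 7.0 in Lower-SP cells, against 7.67, 7.20 and 7.52 in Upper-SP cells. Its difference of -1.36 ± 0.41 (limma adjusted p = 0.042) lost the call with cyclic loess (limma adjusted p = 0.0592), with median centring (0.0501) and without any 1 of 5 arrays (limma adjusted p from 0.0833 to 0.151), Lower-SP replicate 3 being the exception.

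Slc39a7, which releases zinc from the endoplasmic reticulum, and Slc39a1, a zinc importer of the plasma membrane, are also named from their calls. Slc39a7 measured 9.64, 9.65 and 9.15 in Lower-SP cells, against 10.56, 10.37 and 10.19 in Upper-SP cells, a difference of -0.89 ± 0.19 (limma adjusted p = 0.013). Slc39a1 averaged 8.90 ± 0.10 in Lower-SP cells and 9.71 ± 0.15 in Upper-SP cells (SD, n = 3 each), a difference of -0.80 ± 0.15 (limma adjusted p = 0.00966). Counted by family, 2 of 6 Slc30 genes and 3 of 10 Slc39 genes fell (33.3% and 30%), beside 20.7% of all genes.

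With cyclic loess 5 of the 6 metal carriers were still lower. Besides Slc39a11, Slc39a1 and Slc39a7 lost the call without Upper-SP replicate 1, and Slc30a9 without Upper-SP replicate 2 (limma adjusted p = 0.0519). With Lower-SP replicates 1 and 2 left out, Slc39a7 alone kept the call and the median of the class was -0.45. Among the iron carriers, Slc40a1 (ferroportin), the iron exporter, measured 5.44, 5.15 and 4.86 in Lower-SP cells, against 5.08, 5.25 and 4.75 in Upper-SP cells, and its groups overlapped. Slc11a1 and Slc11a2, importers of iron and manganese, did not reach the level rule, and the highest value of an Slc11a2 probe set was 4.95, on an Upper-SP array. Slc39a10, a zinc importer, differed by -0.81 ± 0.50 and did not pass (limma adjusted p = 0.254), its Lower-SP values running from 5.32 to 7.43.

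Mitochondrial carriers were the largest family, with 31 genes of Slc25. Of these 5 fell, 26 did not pass and none rose. The 5 are 16.1% of the family, beside 20.7% lower and 7.05% higher among all genes. The family's median difference was -0.38, beside -0.24 for all genes, and 24 of 31 differences were below 0. The other 120 Slc transporters had a median of -0.19, with 7 higher and 17 lower. The mean over the family was 7.68, 7.65 and 7.58 on the Lower-SP arrays, against 8.04, 8.03 and 7.96 on the Upper-SP arrays, so the fractions did not overlap, and the mean over all genes did not overlap either, with 7.75, 7.72 and 7.79 against 8.03, 7.97 and 7.89.

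Slc25a26, which brings the methyl donor S-adenosylmethionine into mitochondria, measured 5.97, 6.60 and 6.02 in Lower-SP cells, against 7.70, 7.30 and 8.07 in Upper-SP cells. The groups were far apart, with a difference of -1.50 ± 0.29, or 2.82-fold lower (limma adjusted p = 0.00956). Slc25a11, the oxoglutarate and malate exchanger of the malate-aspartate shuttle, measured 5.72, 6.01 and 6.06 in Lower-SP cells, against 7.21, 7.28 and 6.86 in Upper-SP cells. Its difference was -1.19 ± 0.23, or 2.28-fold lower (limma adjusted p = 0.0101). Slc25a12, the aspartate and glutamate carrier of the same shuttle, differed by 0.39 ± 0.22 and did not pass (limma adjusted p = 0.229), and Slc25a13, its close relative, stayed under log2 4 on every array.

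Slc25a45 measured 7.62, 7.83 and 7.15 in Lower-SP cells, against 8.63, 8.78 and 8.42 in Upper-SP cells, a difference of -1.08 ± 0.23 (limma adjusted p = 0.0137). Slc25a51, which brings NAD+ into mitochondria, averaged 9.03 ± 0.24 in Lower-SP cells and 9.61 ± 0.08 in Upper-SP cells (SD, n = 3 each). Its difference was -0.58 ± 0.17 (limma adjusted p = 0.037), and it lost the call without Lower-SP replicate 2, without any 1 Upper-SP replicate, with cyclic loess (-0.37, limma adjusted p = 0.117) and with quantile normalisation (0.0738). Of its other kept probe sets, 1 was called lower by -0.79 and 1 differed by -0.14 (limma adjusted p = 0.0123 and 0.743). Slc25a26 and Slc25a45 kept theirs without Lower-SP replicates 1 and 2. None of the 5 mitochondrial calls held without Upper-SP replicate 1, where the adjusted p ran from 0.0534 to 0.146 by limma, and Slc25a45 was also lost without Upper-SP replicate 2 (0.0583).

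The adenine nucleotide carriers exchange ADP for ATP across the inner membrane. Slc25a5 measured 12.76, 12.72 and 12.58 in Lower-SP cells, against 13.15, 13.002 and 12.93 in Upper-SP cells. The gap was small but larger than the spread, with a difference of -0.34 ± 0.10, or 1.27-fold lower (limma adjusted p = 0.0372). Of its 8 kept probe sets 4 were called lower, 2 differed by -0.24 and -0.32 without passing, and 2 differed by 0.68 and 0.38 without passing. Most of these probe sets are of a kind that may bind near-identical copies of the gene, so the value of Slc25a5 is uncertain, and its call was lost with cyclic loess, quantile normalisation and median centring (limma adjusted p = 0.198, 0.15 and 0.0914) and without any 1 array other than Upper-SP replicate 3.

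Slc25a4, the other adenine nucleotide carrier measured, differed by -0.23 ± 0.16 and did not pass (limma adjusted p = 0.3). Slc25a3, the phosphate carrier, measured 13.71, 13.64 and 13.50 in Lower-SP cells, against 14.03, 14.13 and 13.75 in Upper-SP cells. These groups did not overlap, but the difference of -0.35 ± 0.12 was just outside the threshold (limma adjusted p = 0.0572). Slc25a1, the citrate exporter, differed by -0.61 ± 0.22 (limma adjusted p = 0.0712), and Slc25a20, the carnitine-acylcarnitine carrier of fatty acid oxidation, by 0.01 ± 0.15 (limma adjusted p = 0.96), with a 95% interval from -0.34 to 0.37.

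The mitoferrins Slc25a37 and Slc25a28 import iron for heme and iron-sulfur clusters. Slc25a37 differed by -0.56 and Slc25a28 by -0.46, neither passing (limma adjusted p = 0.165 and 0.114). Slc25a38, a glycine carrier needed for heme synthesis, lay above log2 4 on 1 array and was not tested.

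**Figure D3:**
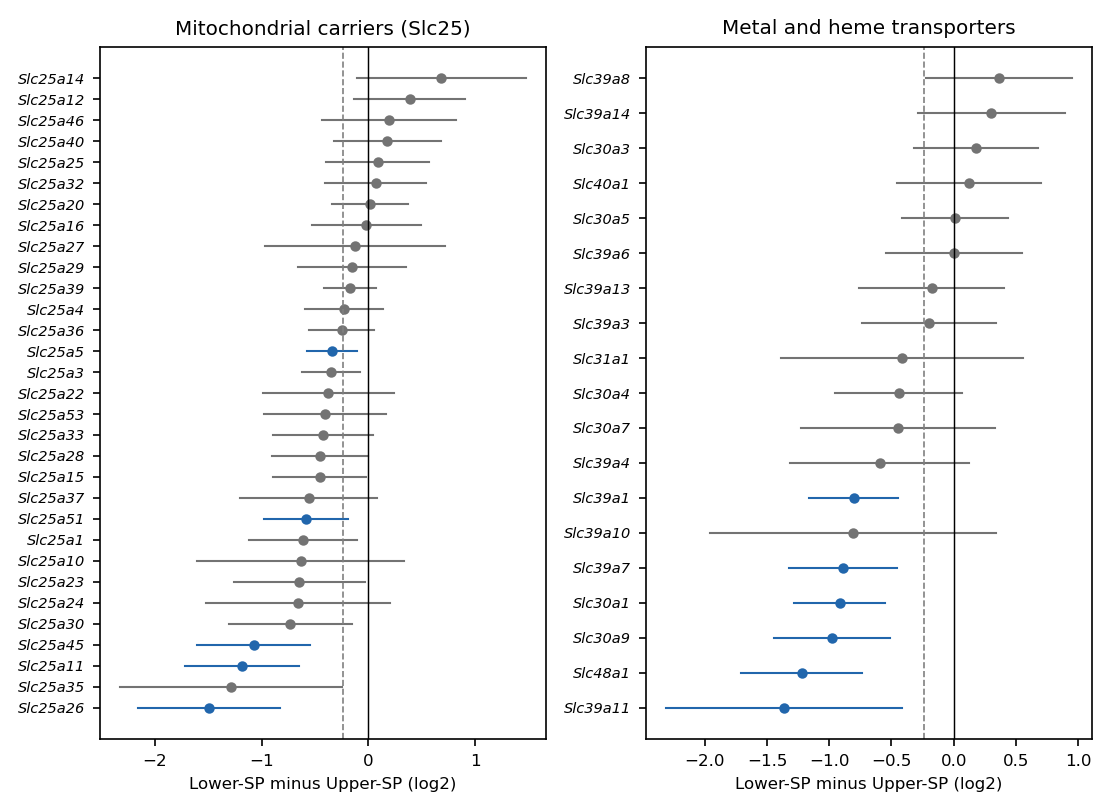
Log2 difference, Lower-SP minus Upper-SP (horizontal axis), of the 31 mitochondrial carriers (left) and the 19 metal and heme carriers (right), with 95% intervals from limma as bars and the median of all tested genes as a dashed line. In the mitochondrial family 24 of 31 points lie below 0, and 5 passed; in the metal class 13 of 19 lie below 0, and 6 passed.

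Among 13 carriers of monocarboxylates, organic ions and bile acids, 2 fell and none rose. These are 15.4% of the class, beside 20.7% lower and 7.05% higher among all genes. Slc22a17, a receptor and carrier for siderophore-bound iron with lipocalin-2, measured 5.57, 5.62 and 5.63 in Lower-SP cells, against 7.57, 6.91 and 6.39 in Upper-SP cells. The Lower-SP values were nearly equal while the Upper-SP values spread over more than 1 log2 unit, and the difference was -1.35 ± 0.32, or 2.54-fold lower (limma adjusted p = 0.0186). The ligand gene Lcn2 itself measured 8.72, 8.24 and 4.45 in Lower-SP cells, against 3.27, 3.77 and 2.87 in Upper-SP cells, and is 1 of the neutrophil markers given above. Slc10a3, a relative of the bile acid carriers, differed by -0.87 ± 0.27 (limma adjusted p = 0.0474), and lost the call with cyclic loess, quantile normalisation and median centring (0.0797, 0.0552 and 0.0511).

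Slc16a1 (MCT1), which carries lactate and pyruvate, measured 9.20, 9.11 and 8.85 in Lower-SP cells, against 8.56, 8.99 and 7.97 in Upper-SP cells. Its groups overlapped, and the difference of 0.55 ± 0.27 did not pass (limma adjusted p = 0.162). Slc16a3 (MCT4), the lactate exporter of glycolytic cells, stayed under log2 4 on every array. Slc22a17 and Slc10a3 both lost the call without Lower-SP replicates 1 and 2 (limma adjusted p = 0.325 for Slc10a3 and 0.125 for Slc22a17), and without any 1 array other than replicate 3 of either fraction (0.0521 to 0.178).

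Of the 19 nucleotide sugar carriers, which feed glycosylation in the Golgi apparatus and endoplasmic reticulum, 1 fell and none rose. That is 5.26% lower, beside 20.7% lower and 7.05% higher among all genes. Slc35e2 measured 7.34, 8.01 and 7.70 in Lower-SP cells, against 8.67, 8.76 and 8.89 in Upper-SP cells, a difference of -1.09 ± 0.22, or 2.13-fold lower (limma adjusted p = 0.0107). Without Upper-SP replicate 1 the adjusted p was 0.0507 by limma. Slc35b3, a carrier of the sulfate donor PAPS, differed in the other direction by 0.76 ± 0.25 and did not pass (limma adjusted p = 0.0556). With cyclic loess 2 genes of the class were higher and 1 lower (10.5% and 5.26%), beside 10.2% and 13.8% of all genes.

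Nucleoside and nucleobase carriers were few. The level rule kept 3 genes, none passed, and all 3 differences were below 0, from -0.65 to -0.43. Slc29a2, an equilibrative nucleoside carrier, measured 4.19, 4.24 and 3.59 in Lower-SP cells, against 4.74, 4.62 and 4.40 in Upper-SP cells, and its difference of -0.58 did not pass (limma adjusted p = 0.112). Slc43a3, a purine nucleobase carrier, measured 5.80, 5.92 and 5.02 in Lower-SP cells, against 6.43, 6.33 and 5.94 in Upper-SP cells (limma adjusted p = 0.145). Slc29a1, the most widely expressed nucleoside carrier, stayed under log2 4 on every array. Slc28a2, a concentrative nucleoside carrier, was not analysed here, nor was Slc22a3.

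Of 12 carriers of vitamins, lipids and other cofactors, 1 rose and none fell. That is 8.33% higher, beside 7.05% higher and 20.7% lower among all genes. Slc5a3 (SMIT1), which imports the osmolyte myo-inositol with sodium, measured 10.25, 10.13 and 10.06 in Lower-SP cells, against 9.31, 9.22 and 9.02 in Upper-SP cells. The groups stood well apart, with a difference of 0.96 ± 0.15, or 1.94-fold (limma adjusted p = 0.00501). A second probe set was called higher by 1.15 (limma adjusted p = 0.012), and the remaining one differed by 1.09 with wide spread and did not pass (limma adjusted p = 0.257). Without Lower-SP replicates 1 and 2 the adjusted p of Slc5a3 was 0.0562 by limma.

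Slc19a1, the reduced folate carrier, and Slc19a2, a thiamine importer, differed by -0.32 and 0.51, and neither passed. Slc18a2 (VMAT2), which loads monoamines into vesicles, measured 8.94, 8.82 and 8.63 in Lower-SP cells, against 8.29, 8.30 and 8.52 in Upper-SP cells. Its groups did not overlap, yet the difference of 0.43 ± 0.17 did not pass (limma adjusted p = 0.099).

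The remaining class of 3 genes held Slc17a9, which loads nucleotides such as ATP into vesicles, and it fell. Slc17a9 measured 5.69, 5.80 and 5.08 in Lower-SP cells, against 6.45, 6.48 and 6.44 in Upper-SP cells, a difference of -0.93 ± 0.26 (limma adjusted p = 0.0313). It kept the call without Lower-SP replicates 1 and 2 and lost it with cyclic loess (limma adjusted p = 0.0542) and without Lower-SP replicate 1 or any 1 Upper-SP replicate (0.057 to 0.113). Slc17a5 (sialin), which carries sialic acid out of the lysosome, differed by 0.09 and did not pass.

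The symbol rule also took in 5 genes that are not transporters but are named after one. Slc7a6os, which lies on the strand opposite Slc7a6, measured 8.18, 8.40 and 8.49 in Lower-SP cells, against 9.52, 9.38 and 9.51 in Upper-SP cells. Its difference was -1.11 ± 0.16, or 2.16-fold lower (limma adjusted p = 0.00432), and it passed in each of the 21 other settings, although its second kept probe set differed by -0.13 and did not pass (limma adjusted p = 0.751). Slc2a4rg-ps, a pseudogene of a regulator of Slc2a4, averaged 5.10 ± 0.05 in Lower-SP cells and 6.21 ± 0.07 in Upper-SP cells (SD, n = 3 each), a difference of -1.12 ± 0.20 (limma adjusted p = 0.00807), with an adjusted p of 0.052 without Lower-SP replicates 1 and 2 and of 0.0516 without Upper-SP replicate 1. Without these 5 genes, 7 Slc transporters were higher and 22 lower of 151 (4.64% and 14.6%), beside 7.05% and 20.7% of all genes.

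Several probe sets measured 53 of the genes, and they often differed. In 24 of these genes the probe sets had differences of opposite sign. In 11 the brightest probe set was called and another was not, in 9 the brightest was not called while another was, and in 2 all kept probe sets were called. The 9, given here because of these calls, were Slc20a1, Slc25a30, Slc25a36, Slc25a39, Slc35a4, Slc35d1, Slc38a9, Slc39a6 and Slc44a2.

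Slc38a9, the lysosomal arginine sensor and carrier, had 7 kept probe sets. Its brightest measured 8.04, 7.99 and 8.28 in Lower-SP cells, against 8.38, 8.56 and 8.87 in Upper-SP cells, a difference of -0.50 that did not pass (limma adjusted p = 0.0946). A further 3 were called lower, by -1.10, -1.002 and -1.33 (limma adjusted p = 0.0295, 0.00828 and 0.0289). Slc25a36, a mitochondrial pyrimidine nucleotide carrier, differed by -0.25 where its signal was brightest, and its other probe sets were both lower, by -0.94 and -1.78 (limma adjusted p = 0.0315 and 0.0158).

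Slc35d1, a carrier of UDP-glucuronic acid, differed by -0.47 through its brightest probe set without passing (limma adjusted p = 0.0631) and was called higher by 1.15 through another (limma adjusted p = 0.0127). Slc39a6, a zinc importer, differed by 0.00 through its brightest probe set (limma adjusted p = 0.997). Another of its probe sets measured 4.92, 4.29 and 5.05 in Lower-SP cells, against 3.09, 2.97 and 3.04 in Upper-SP cells (limma adjusted p = 0.00404). That probe set was the 1 of 238 that passed the level rule through the Lower-SP arrays alone, so a difference was built into its passing.

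**Figure D4:**
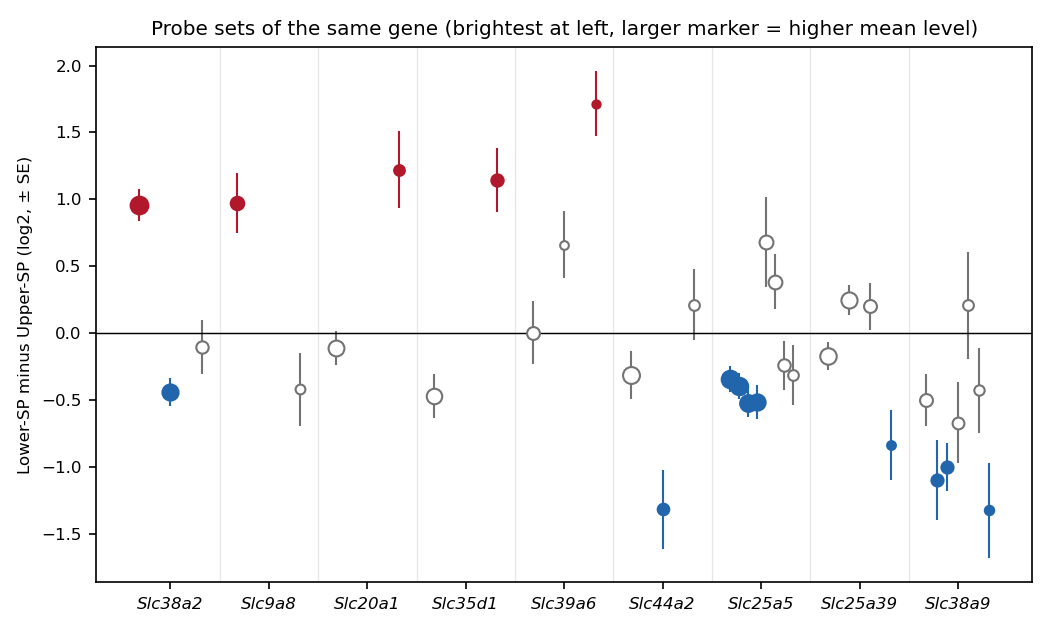
Log2 difference, Lower-SP minus Upper-SP (vertical axis), of each kept probe set of 9 genes (horizontal axis), namely Slc39a6 and the genes that had a called probe set and differences of opposite sign; points are probe sets ordered from the brightest at the left, larger points have a higher mean, bars are ± SE, and filled points passed limma at an adjusted p under 0.05 (red higher, blue lower). Slc38a2 has a filled point on each side of 0, while in the other genes the called probe sets all lie on one side.

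The counts were also read by the kind of sequence behind a probe set. Of the 238 kept Slc probe sets, 39 were annotated to a RefSeq mRNA, and 0 of these were higher and 5 lower, beside 3.46% higher and 26.7% lower among all such probe sets. Of the other 199, 13 were higher and 34 lower, beside 9.94% and 16.7%. All 13 calls in the higher direction, Slc7a1, Slc38a2 and Slc2a1 included, thus came from probe sets annotated to other sequences. Read through RefSeq mRNA probe sets alone, a setting chosen after the data were seen, 0 of 39 Slc genes were higher and 5 lower by limma, beside 3.72% and 27.5% of genes. The part of probe position in these differences was not tested.

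Near the level rule, 2 probe sets lay above log2 4 on exactly 3 arrays and 9 on 2. Just inside, a probe set of Slc35b4 measured 3.39, 3.38 and 4.38 in Lower-SP cells and 4.23, 4.23 and 3.65 in Upper-SP cells. Just outside, one of Slc5a6, a biotin and pantothenate importer, measured 2.78, 3.11 and 2.82 in Lower-SP cells and 4.71, 5.17 and 2.86 in Upper-SP cells, and one of Slc16a10, an aromatic amino acid carrier, measured 4.17, 5.16 and 3.63 in Lower-SP cells and 2.61, 2.59 and 2.64 in Upper-SP cells.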

How the data were processed

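The data were 6 arrays, 3 per fraction, and the deposited table holds log2 expression values per probe set of an Affymetrix mouse array, which the authors made with GCOS 1.0 and GCRMA, per the submitters' processing notes. GCRMA corrects background by probe sequence, normalises the arrays to each other and joins the probes of a set, which moves values near the bottom most. No parameters and no genome build are given in the sources used here. No array was dropped and no value imputed.

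Probe sets were named from the platform annotation supplied with the series, 64 control probe sets were left out, and all 156 measured Slc genes matched a current gene record by Entrez ID with 0 symbols changed. Differences, Lower-SP minus Upper-SP, were tested two-sided by limma 3.58.1 under R 4.3.3 (lmFit and trended eBayes, residual df 4) on all 19613 probe sets above log2 4 on at least 3 of 6 arrays, after the procedure was tested on simulated data. The p-values were adjusted by Benjamini-Hochberg over all of them, with a threshold of 0.05, and reflect the spread between 3 pools per fraction, which limits the precision. A gene was read through its brightest tested probe set with 1 symbol (9460 genes).

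Genes were named by rule: the 12 largest called differences in each direction, up to 4 called genes per substrate class or else the 2 with the smallest p, genes with opposite calls, and a list of well-known carriers. Classes followed the family number except for genes placed singly, among them the called genes Slc5a3, Slc66a1 and Slc17a9. Of the genes placed singly, Slc4a1ap, Slc43a3 and Slc17a5 were placed after the values were seen. Members and lists were chosen with earlier results of these data known. Promoters are RefSeq's, in build GRCm38.p6.

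The deviations of same-numbered arrays of the fractions had correlations from -0.0513 to -0.0233, and the main fit treated the arrays as unpaired. The labels do not say whether a shared number marks a shared pool or sorting day, so whether the samples are paired is not known. Alternatives covered the level filter, scaling, moderation, the choice of probe set, a replicate block and leaving out arrays.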

Additional observations from a re-analysis of the deposited data

How the results depend on the processing

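The median difference of the Slc genes was -0.24; it turned to 0.024 with no level filter, where 346 genes were read and most lay at the bottom of the scale, and was -0.319 with a filter at log2 6, -0.152 with quantile normalisation, -0.149 with median centring, -0.12 with cyclic loess and -0.311 with array weights. The median of all genes moved likewise, to 0.022 with no level filter and -0.276 with the filter at log2 6. It was -0.143 with quantile normalisation, -0.149 with median centring, -0.092 with cyclic loess and -0.302 with array weights. Slc genes called higher numbered 11 with median centring, 13 with cyclic loess and 21 with array weights, beside 793, 962 and 1301 of all 9460 genes. Those called lower numbered 10 with unmoderated statistics and 62 with array weights, beside 623 and 3967 of all genes. Probe sets called higher numbered 7 with unmoderated statistics, 23 with cyclic loess and 34 with array weights; those called lower 15 with unmoderated statistics and 89 with array weights. The cause of these shifts was not tested.

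Leaving out 1 array at a time gave 4 to 8 genes higher and 5 to 33 lower, 7 to 15 probe sets higher and 6 to 51 lower, and a median from -0.281 to -0.208. The lowest counts came without Upper-SP replicate 1 (4 higher, 5 lower) and Upper-SP replicate 2 (5 higher, 10 lower), which kept 9 and 15 of the 31 calls. Over all genes these settings gave 270 higher and 425 lower, and 387 higher and 798 lower. Lower-SP replicates 1 and 2 left out together gave 12 genes and 18 probe sets lower. RefSeq mRNA probe sets alone gave 0 genes and 0 probe sets higher, 5 genes and 5 probe sets lower, and a median of -0.352, beside -0.395 for all genes.

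With the replicate block 6 genes were higher and 20 lower, beside 510 and 1418 of all genes. With it 11 probe sets were higher and 32 lower, the median was -0.237, and 24 of 31 calls were kept. Same-numbered arrays had correlations of deviations from -0.0513 to -0.0233, so the block rests on a shared number only. Through the probe set of highest variance, Slc20a1 was 1.22 and Slc25a5 0.68. Slc25a5, called lower, thus changed sign there without passing, and the other calls kept their sign in the other settings. Signal near the bottom of the scale limits the low genes, such as Slc29a2.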

Other observations

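Of 25 listed carriers named outside the Slc scheme, 18 were measured, of which 1 rose and 3 fell by limma, beside 7.05% higher and 20.7% lower among all genes, with a median difference of -0.45 beside -0.24 for all genes. Slco4a1, an organic anion carrier, measured 11.29, 11.28 and 11.08 in Lower-SP cells, against 10.42, 10.41 and 10.35 in Upper-SP cells, a difference of 0.82 (limma adjusted p = 0.00442). Those that fell were Mtch1, a mitochondrial outer membrane relative of the Slc25 family, by -0.91, Xpr1, the phosphate exporter, by -0.90, and Spns2, the sphingosine-1-phosphate exporter, by -0.82 (limma adjusted p = 0.0185, 0.0235 and 0.0475). The direction of Xpr1 is that of its brightest probe set: another measured 7.19, 6.63 and 7.41 in Lower-SP cells, against 5.14, 5.52 and 5.38 in Upper-SP cells, and was called higher by 1.73 (limma adjusted p = 0.00528). Mpc1, a subunit of the mitochondrial pyruvate carrier, differed by -0.59 and did not pass (limma adjusted p = 0.245).

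Of 4 measured accessory chains and chaperones, 3 fell, beside 20.7% of all genes. Emb (embigin), a partner of the monocarboxylate carriers, measured 8.14, 8.26 and 8.52 in Lower-SP cells, against 9.94, 9.97 and 9.30 in Upper-SP cells, a difference of -1.43 (limma adjusted p = 0.00557). Bsg (basigin), the partner of Slc16a1, measured 5.49, 5.73 and 4.39 in Lower-SP cells, against 7.06, 7.17 and 5.93 in Upper-SP cells, a difference of -1.52 (limma adjusted p = 0.0417). Slc16a1 itself, as given above, did not pass and its Lower-SP mean was the higher one. Unc93b1, a chaperone of Toll-like receptors, differed by -1.36 (limma adjusted p = 0.00779), and Ostm1, the partner of a lysosomal chloride carrier, by -1.30 without passing (limma adjusted p = 0.119).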
